A study of Homo sapiens with 24 samples.

Results

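The 7 inhibitors of cyclin-dependent kinases of the CIP/KIP and INK4 families (CDKN1A, CDKN1B, CDKN1C, CDKN2A, CDKN2B, CDKN2C and CDKN2D) and the 3 D-type cyclins (CCND1, CCND2 and CCND3) were followed in HT29 cells, an established line of human colon adenocarcinoma. Every array probe that is not a control and carries the name of one of these 10 genes was taken, which gave 12 probes, out of 36337 gene names and 50599 probes on the array. Over 6 h, cells were left untreated (NT) or received C3/C2 (propionate at 30 mM with acetate at 15 mM), with SN (culture supernatant of the dairy bacterium Propionibacterium freudenreichii in cell culture medium, diluted 2-fold), with TRAIL (100 ng/ml of the Flag-tagged death receptor ligand with 2 µg/ml of anti-Flag M2 antibody), or with TRAIL and either C3/C2 or SN at the same doses (TRAIL+C3/C2 and TRAIL+SN). Each of the 6 groups had 4 one-colour arrays, 24 in all, and the doses of propionate and acetate were chosen by the study to match those of the diluted SN. All groups are a single cell line in culture at one time point, and SN holds bacterial products and spent medium besides its acids.

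D-type cyclins bind the kinases CDK4 and CDK6, and these complexes phosphorylate the retinoblastoma protein so that cells can pass from G1 into S phase. The INK4 proteins (p16, p15, p18 and p19, from CDKN2A to CDKN2D) bind CDK4 and CDK6 and keep D-type cyclins off, whereas the CIP/KIP proteins (p21, p27 and p57, from CDKN1A to CDKN1C) bind cyclin-kinase complexes, those of CDK2 with cyclins E and A above all. Short chain fatty acids inhibit histone deacetylases, and raised CDKN1A is a well-known response of colon cells to such inhibitors.

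The probes decide which transcripts can be seen, so those of CDKN1A and of CDKN2A, a gene with an alternative product, are shown (5′ to 3′, as listed on the array). The CDKN1A probe lies on the plus strand of chr6:36652178-36652237 (hg19). The second CDKN2A probe lies on the minus strand of chr9:21970901-21970960 (hg19). Both CDKN2A probes list transcripts of p16 and of the alternative product ARF, so the 2 products cannot be told apart here.
CDKN1A: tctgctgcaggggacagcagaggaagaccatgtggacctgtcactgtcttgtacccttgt
CDKN2A: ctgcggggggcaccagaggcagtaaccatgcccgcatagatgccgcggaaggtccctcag

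RefSeq promoters (GRCh38.p14) were matched to 7 of the 10 genes, with 12 start sites, and none was matched to CDKN1C, CCND1 and CCND2. The 250 bases before the start site are shown for CDKN1A and CDKN2B, whose levels followed each other most closely among the inhibitors over the 24 arrays (r = 0.96, a description only), and for 1 of the 3 start sites of CDKN2C, which was not called under any treatment with the scaling used here. Capitals mark each match to GGGCGG or, for the other strand, CCGCCC, the core of the GC box bound by Sp1 family factors, counted with overlaps. The windows are chr6:36678464-36678713 (plus strand) for CDKN1A, chr9:22009306-22009555 (minus strand) for CDKN2B and chr1:50968456-50968705 (plus strand) for CDKN2C.
CDKN1A: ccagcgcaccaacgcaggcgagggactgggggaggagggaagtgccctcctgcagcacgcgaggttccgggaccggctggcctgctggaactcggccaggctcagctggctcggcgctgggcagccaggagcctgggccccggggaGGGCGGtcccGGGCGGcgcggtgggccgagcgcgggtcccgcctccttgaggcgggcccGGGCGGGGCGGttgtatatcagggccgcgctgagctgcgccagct
CDKN2B: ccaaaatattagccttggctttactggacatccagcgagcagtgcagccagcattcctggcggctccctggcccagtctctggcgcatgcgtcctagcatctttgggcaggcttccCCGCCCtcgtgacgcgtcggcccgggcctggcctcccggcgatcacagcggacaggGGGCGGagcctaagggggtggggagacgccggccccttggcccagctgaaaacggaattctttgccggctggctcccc
CDKN2C: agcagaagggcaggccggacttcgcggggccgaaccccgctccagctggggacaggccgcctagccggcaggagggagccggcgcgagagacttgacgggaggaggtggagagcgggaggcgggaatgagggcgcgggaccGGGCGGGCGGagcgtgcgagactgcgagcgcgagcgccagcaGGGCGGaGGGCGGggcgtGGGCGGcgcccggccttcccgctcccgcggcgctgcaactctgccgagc

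The CDKN1A window holds 4 matches, that of CDKN2B 2 and that of CDKN2C 5, while the other 2 windows of CDKN2C, not shown, hold 0 and 1. Of the 12 windows of these genes 9 hold at least 1 match, against 42.6% of 35116 RefSeq promoter windows of the same length. No window of these genes holds TATAAA on either strand, which 10.7% of all windows do.

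A level is given as the log2 intensity of a probe relative to the 75th percentile of its array, with the 4 replicates in the order of their numbers, and is compared between groups for the same probe only. A probe was called when the limma fit of all 24 arrays gave a fold of at least 2 and a Benjamini-Hochberg adjusted p under 0.05 over the 27953 probes tested. Of the 12 probes, 11 passed the background criterion on each of the 24 arrays and were tested, while the CCND2 probe passed it on none. NT and C3/C2 arrays shared slides 1 and 2, SN and TRAIL arrays lay on slide 3 and both co-treatments on slide 4. All differences from NT other than that of C3/C2 therefore cannot be told apart from a slide difference. The same holds for SN against C3/C2, for a co-treatment against C3/C2 or SN alone, and for the interactions given further on. On slides 1 and 2, NT and C3/C2 filled separate rows, so row and group cannot be told apart there. The share of probes well above background ran from 49.8% to 57.8% by array, and the median 75th percentile of intensity went from 883 in NT to 503 in TRAIL+C3/C2. The choice of scaling shifts the differences of all probes from NT together: array median scaling moves them by −0.30 (C3/C2), −0.13 (SN), 0.10 (TRAIL), −0.35 (co-treatment with C3/C2) and −0.19 (co-treatment with SN) on the log2 scale, and spike-in scaling by −0.18, 0.07, −0.27, −0.71 and −0.53. All 12 epithelial markers passed the background criterion on each array. Of 12 markers of other cell types, 6 passed it on all arrays, 3 on some arrays, and COL1A2, COL3A1 and MS4A1 on none. The summed level of the 12, in multiples of the 75th percentile, ran from 2.45 to 3.16 in NT and from 2.40 to 3.22 in TRAIL. It ran from 4.41 to 5.48 and 5.21 to 6.73 with C3/C2 and SN alone. With their co-treatments it ran from 4.75 to 5.88 and 5.32 to 7.24. This sum moves with the members described here, led by CD14 (mean log2 level 0.75 in NT and 1.91 in SN) and COL1A1 (−6.54 and −0.55), and its part in the results was not tested. In bulk RNA, a change in the share of cells that express a gene and a change in its RNA per cell cannot be told apart.

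Against NT, CDKN1A, CDKN1C, CDKN2B, CDKN2D and CCND3 were called higher with C3/C2, with SN and with TRAIL+C3/C2, and the first 4 of them with TRAIL+SN. With TRAIL alone, CDKN1A was the one gene called. Counted by probes, 5 of 11 were called higher and 1 lower with C3/C2, where 13.3% and 6.22% of all probes were, and 5 higher and 0 lower with SN, where 14.1% and 9.69% were. With TRAIL it was 1 higher and 0 lower (0.723% and 2.11% of all probes), with TRAIL+C3/C2 5 higher and 1 lower (16.4% and 8.12%) and with TRAIL+SN 4 higher and 0 lower (16.1% and 10.2%). At an unadjusted p under 0.05, without the fold threshold, limma gave 10, 7, 6, 9 and 10 of the 11 probes in these 5 comparisons. The median log2 difference over the 11 probes was 0.18, 0.12, 0.22, 0.30 and 0.26, against 0.07, −0.01, 0.04, 0.10 and 0.05 over all probes. The 5 comparisons share the same NT arrays.

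The split of calls over all probes depended on the scaling, and with it the background for the members. For C3/C2 it went from 3725 higher and 1739 lower to 2622 and 3282 with the array median and 2998 and 2585 with the spike-in probes, and for SN from 3951 and 2708 to 3391 and 3391, and 4289 and 2418. For TRAIL it went from 202 and 590 to 280 and 510, and 102 and 1041. Co-treatment with C3/C2 changed from 4582 and 2269 to 3074 and 4300 (array median) or 2070 and 8033 (spike-in). Co-treatment with SN changed from 4490 and 2841 to 3562 and 3943, or to 2452 and 6735. The members split into 4 higher and 1 lower with C3/C2 under both scalings. With the spike-in probes they split into 4 higher and 2 lower in each co-treatment, and with the array median into 4 and 1. The splits for SN (5 and 0) and TRAIL (1 and 0) were as before.

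**Figure D1:**
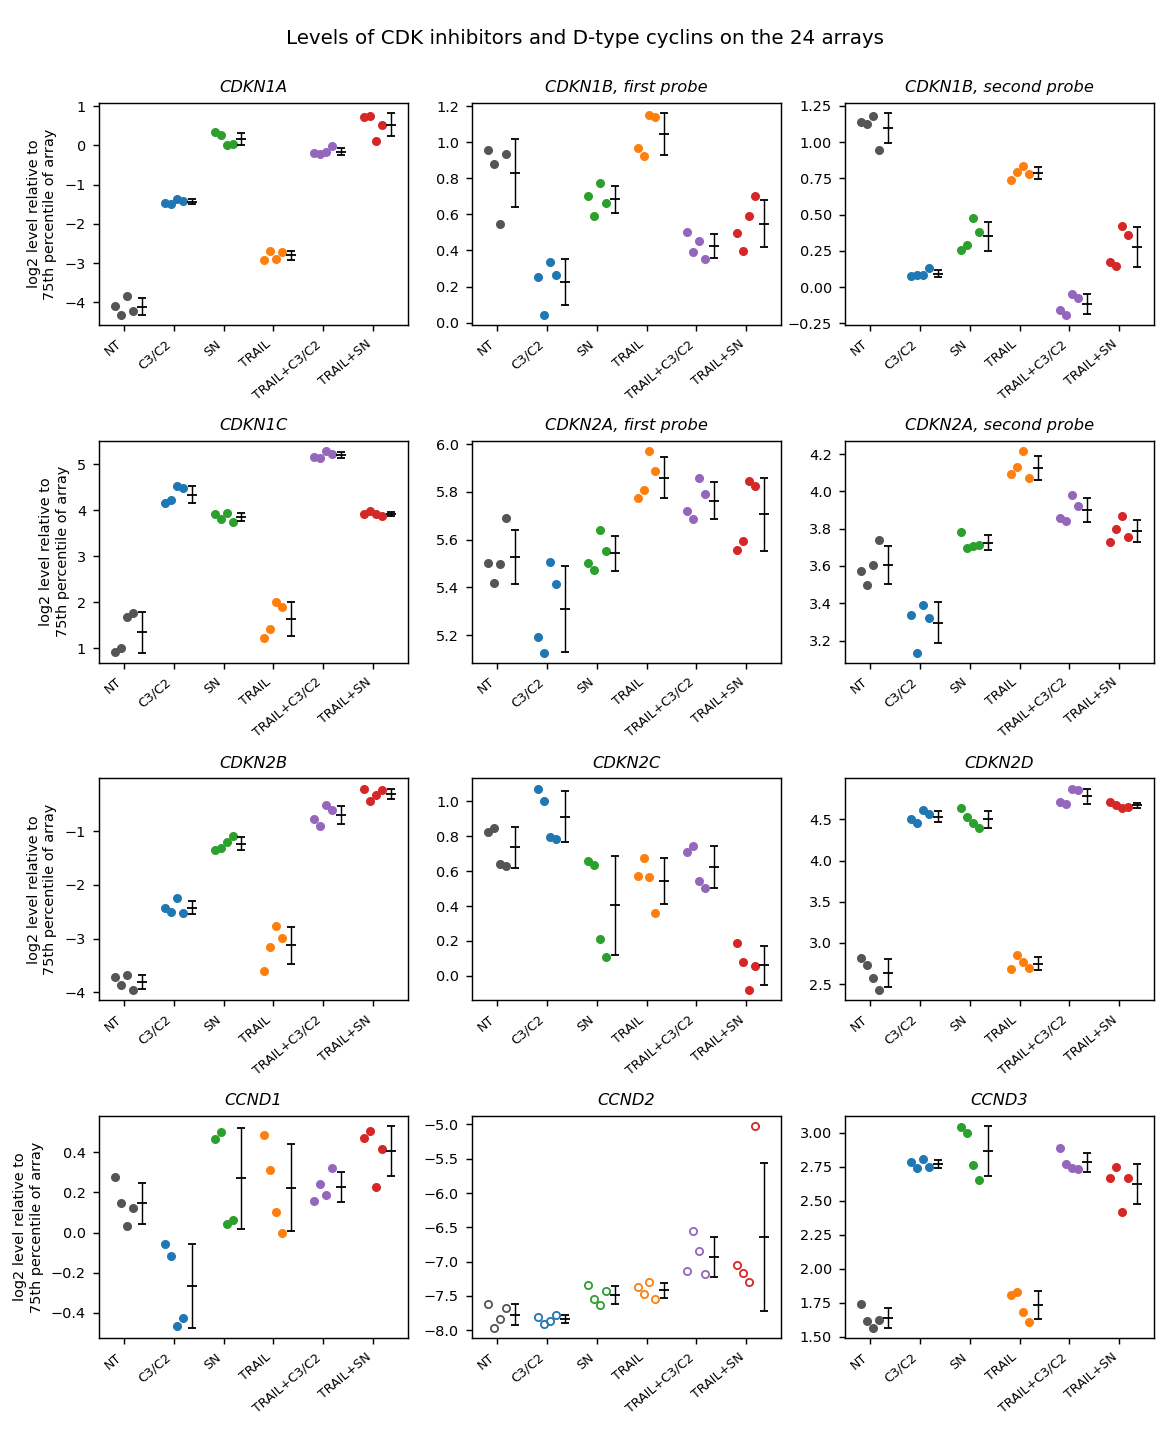
Log2 level of each of the 12 probes relative to the 75th percentile of its array (vertical axes, a separate scale for each probe) in the 6 groups, with 1 point per array in the order of replicates 1 to 4, open where the probe was not well above background, and the mean ± SD of 4 arrays in black. First and second probe are in the order of hg19 coordinates. CDKN1A, CDKN1C, CDKN2B, CDKN2D and CCND3 lie higher on all arrays of every group with C3/C2 or SN than on the NT arrays, and all CCND2 points are open.

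CDKN1A (p21) had the largest differences from NT of the members with SN, TRAIL and TRAIL+SN, while CDKN1C had the larger one with C3/C2. With TRAIL+C3/C2 the order of the pair was not stable, with CDKN1A at 3.96 and CDKN1C at 3.86, against 2.75 and 3.76 with the normexp background described below and 3.92 and 4.00 without NT replicate 4. The CDKN1A level was −4.09, −4.31, −3.83 and −4.22 in NT and −2.92, −2.69, −2.88 and −2.72 in TRAIL. It was −1.47, −1.48, −1.36 and −1.42 in C3/C2 and 0.33, 0.27, 0.02 and 0.03 in SN. With co-treatment it was −0.19, −0.23, −0.18 and −0.03 in TRAIL+C3/C2 and 0.73, 0.75, 0.12 and 0.51 in TRAIL+SN. From low to high, the order was NT, then TRAIL, then C3/C2, then TRAIL+C3/C2, then SN, then TRAIL+SN, and only SN and TRAIL+SN overlapped. Relative to NT, CDKN1A was 2.48-fold higher with TRAIL (log2 difference 1.31 ± 0.12 SE, adjusted p = 8.34e-08) and 6.40-fold with C3/C2 (2.68 ± 0.12, adjusted p = 5.35e-14). SN gave 19.4-fold (4.27, adjusted p = 2.86e-17), TRAIL+C3/C2 15.5-fold (3.96, adjusted p = 8.37e-17) and TRAIL+SN 24.9-fold (4.64, adjusted p = 5.74e-18). CDKN1A was dim in NT, with an intensity of 43.7 to 71.1, and background correction by normexp with an offset lowered these differences to 0.76 for TRAIL, below the fold threshold, and 1.64 for C3/C2, with 3.07 to 3.34 for SN and TRAIL+SN. The arrays of slide 2 alone gave 2.70 for C3/C2.

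CDKN1B (p27) was read by 2 probes that gave different values. The second, at chr12:12874940-12874999 (plus strand, hg19), which is spotted 10 times, stood at 1.14, 1.12, 1.18 and 0.95 in NT and 0.74, 0.79, 0.84 and 0.78 in TRAIL. It read 0.07, 0.08, 0.08 and 0.13 in C3/C2 and 0.25, 0.29, 0.48 and 0.38 in SN. In the co-treatments it read −0.16, −0.19, −0.05 and −0.07 (TRAIL+C3/C2) and 0.17, 0.15, 0.42 and 0.36 (TRAIL+SN). All treated arrays were below all NT arrays. The fall was 2.00-fold with C3/C2 (log2 difference −1.003 ± 0.07 SE, adjusted p = 3.29e-11) and 2.32-fold with TRAIL+C3/C2 (−1.21, adjusted p = 1.23e-12), and these 2 were called. The C3/C2 call sits on the fold threshold and is lost without NT replicate 1 (−0.99), 2 (−0.99) or 3 (−0.98), without C3/C2 replicate 1 (−0.997), on slide 2 alone (−0.98) and with the normexp background (−0.95). The differences were −0.75 with SN, −0.82 with TRAIL+SN and −0.31 with TRAIL, past the adjusted p but not the fold. The difference with TRAIL+SN is called with array median (−1.02) and spike-in (−1.35) scaling. The first probe, at chr12:12871119-12871178 (plus strand, hg19; 1 spot), was not called, with −0.61 for C3/C2, −0.15 for SN and −0.40 and −0.28 for their co-treatments, and with TRAIL it stood at 0.22 (adjusted p = 0.0706), on the other side of 0 from the second probe. With spike-in scaling it is called lower with TRAIL+C3/C2 (−1.12, adjusted p = 6.1e-10), and its TRAIL value is −0.06.

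CDKN1C (p57; chr11:2904903-2904962, minus strand, hg19) stood at 0.91, 1.01, 1.68 and 1.77 in NT (SD 0.44) and at 1.22, 1.42, 2.00 and 1.90 in TRAIL (SD 0.37). Its level was 4.15, 4.21, 4.51 and 4.48 in C3/C2 and 3.91, 3.81, 3.93 and 3.75 in SN. It was 5.15, 5.14, 5.29 and 5.22 in TRAIL+C3/C2 and 3.91, 3.98, 3.92 and 3.88 in TRAIL+SN. NT and TRAIL overlapped and lay below all other groups, SN and TRAIL+SN overlapped, C3/C2 lay above these and TRAIL+C3/C2 lay above all. The rise was 7.97-fold with C3/C2 (log2 difference 2.99 ± 0.17 SE, adjusted p = 2.62e-12) and 5.68-fold with SN (2.51, adjusted p = 3.72e-11). It was 14.5-fold with TRAIL+C3/C2 (3.86, adjusted p = 3.66e-14) and 5.97-fold with TRAIL+SN (2.58, adjusted p = 2.07e-11). TRAIL alone gave 0.29 (95% interval −0.07 to 0.65, adjusted p = 0.211). In NT and in TRAIL, replicates 3 and 4 stood above replicates 1 and 2, a split that the fit leaves in this interval.

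**Figure D2:**
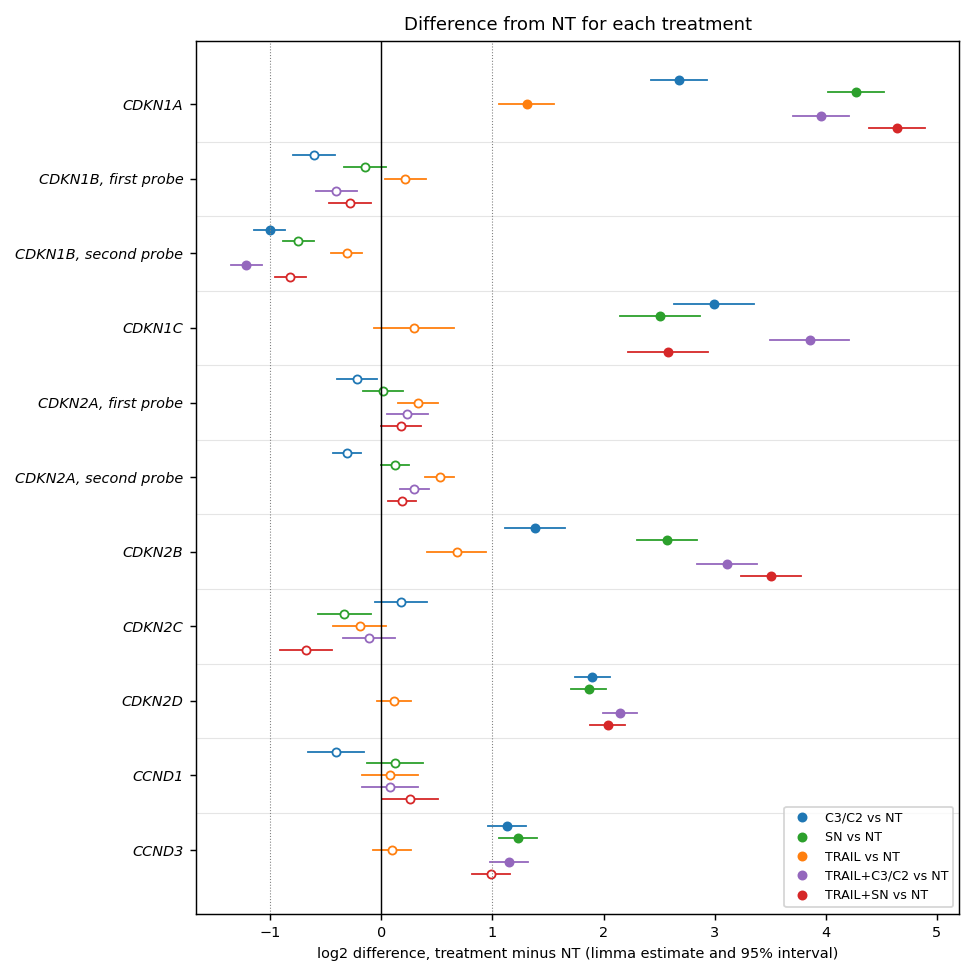
Log2 difference from NT (horizontal axis) of the 11 tested probes for the 5 treatments, as the limma estimate with its 95% interval. Filled points were called (at least 2-fold, adjusted p under 0.05), dotted lines mark 2-fold, and the intervals of CDKN1A, CDKN1C, CDKN2B and CDKN2D lie beyond 2-fold for every treatment with C3/C2 or SN.

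Among the INK4 inhibitors, CDKN2B (p15) and CDKN2D (p19) rose and CDKN2A and CDKN2C were not called. CDKN2B (chr9:22008979-22009038, minus strand, hg19), a known target of TGF-beta signalling, stood at −3.71, −3.86, −3.69 and −3.97 in NT and −3.60, −3.17, −2.77 and −2.99 in TRAIL. It stood at −2.43, −2.50, −2.25 and −2.52 in C3/C2 and −1.35, −1.31, −1.19 and −1.08 in SN. With co-treatment it stood at −0.77, −0.90, −0.51 and −0.61 in TRAIL+C3/C2 and −0.22, −0.43, −0.33 and −0.23 in TRAIL+SN. The groups were ordered NT, then TRAIL, then C3/C2, then SN, then TRAIL+C3/C2, then TRAIL+SN, with no overlap between neighbours. The rise over NT was 2.60-fold with C3/C2 (log2 difference 1.38 ± 0.13 SE, adjusted p = 6.17e-09), 5.95-fold with SN (2.57, adjusted p = 2.35e-13), 8.63-fold with TRAIL+C3/C2 (3.11, adjusted p = 1.14e-14) and 11.4-fold with TRAIL+SN (3.51, adjusted p = 1.38e-15). TRAIL alone gave 0.68 (adjusted p = 0.000424), under the fold threshold, and 0.41 with spike-in scaling. This probe was dim in NT too, at 54.5 to 78.4, and with normexp the differences were 0.86 for C3/C2, no longer called, and 1.79 to 2.59 for the other 3.

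CDKN2D (chr19:10677226-10677285, minus strand, hg19) had a level of 2.82, 2.73, 2.57 and 2.42 in NT and 2.68, 2.85, 2.77 and 2.69 in TRAIL. Its level in C3/C2 was 4.51, 4.45, 4.61 and 4.56, and in SN 4.63, 4.53, 4.45 and 4.39. TRAIL+C3/C2 gave 4.71, 4.69, 4.87 and 4.85, and TRAIL+SN 4.71, 4.67, 4.64 and 4.66. NT overlapped with TRAIL, SN with C3/C2, and both co-treatments with each other, and the 4 groups with C3/C2 or SN stood apart from the other 2. The rise was 3.73-fold with C3/C2 (log2 difference 1.90 ± 0.07 SE, adjusted p = 6.8e-15), 3.65-fold with SN (1.87, adjusted p = 6.7e-15), 4.43-fold with TRAIL+C3/C2 (2.15, adjusted p = 7.5e-16) and 4.10-fold with TRAIL+SN (2.04, adjusted p = 1.4e-15). TRAIL alone gave 0.11 (95% interval −0.04 to 0.27, adjusted p = 0.267). This was a bright probe, and its normexp values stayed between 1.84 and 2.07 for the same 4 treatments.

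CDKN2A (p16 and ARF) was high on all arrays, with a level between 5.13 and 5.97 for its first probe (chr9:21968039-21968098, minus strand, hg19) and between 3.13 and 4.22 for the second, whose sequence is given above. Neither probe was called in any comparison. The second probe differed from NT by −0.31 with C3/C2 (adjusted p = 0.000171) and by 0.52 with TRAIL (adjusted p = 1.97e-06), where the first gave −0.22 and 0.33. With SN the pair gave 0.12 and 0.02, with TRAIL+C3/C2 0.30 and 0.24, and with TRAIL+SN 0.18 and 0.18, so both probes had the same sign under each treatment. With spike-in scaling the co-treatment values turned negative, at −0.42 and −0.48 with TRAIL+C3/C2 and −0.34 and −0.35 with TRAIL+SN. CDKN2C (p18; chr1:51439963-51440022, plus strand, hg19) lay between −0.08 and 1.07 and was not called either, with 0.18 for C3/C2, −0.33 for SN and −0.19 for TRAIL alone, and with −0.11 for the co-treatment with C3/C2 and −0.68 for that with SN (adjusted p = 1.86e-05). With spike-in scaling the last of these is called lower, at −1.20 (adjusted p = 1.67e-06), and the co-treatment with C3/C2 gives −0.82. In TRAIL+SN all 4 CDKN2C values, from −0.08 to 0.19, were below those of NT, from 0.63 to 0.85.

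The D-type cyclins did not move as a group. CCND3 (chr6:41903193-41903252, minus strand, hg19) had a level of 1.74, 1.62, 1.57 and 1.62 in NT and 1.81, 1.83, 1.68 and 1.61 in TRAIL. It had 2.78, 2.74, 2.81 and 2.75 in C3/C2 and 3.04, 3.00, 2.76 and 2.65 in SN. TRAIL+C3/C2 read 2.89, 2.77, 2.74 and 2.74, and TRAIL+SN 2.67, 2.75, 2.41 and 2.67. All groups with C3/C2 or SN lay above NT and TRAIL and overlapped with each other. CCND3 was 2.19-fold higher with C3/C2 (log2 difference 1.13 ± 0.08 SE, adjusted p = 1.21e-10), 2.34-fold with SN (1.23, adjusted p = 2.73e-11) and 2.21-fold with TRAIL+C3/C2 (1.15, adjusted p = 8.18e-11). TRAIL+SN gave 1.98-fold (0.99, adjusted p = 7.67e-10), just under the threshold, and it passes without NT replicate 1 (1.02) or TRAIL+SN replicate 3 (1.06). Scaled to the array median, CCND3 lost its call with C3/C2 (0.83) and TRAIL+C3/C2 (0.80), and scaled to the spike-in probes it gave 0.95 and 0.43 there and 0.46 with TRAIL+SN.

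CCND1 (chr11:69468233-69468292, plus strand, hg19; 10 spots), the cyclin that Wnt and mitogen signals induce, was called in no comparison. Its level ran from 0.03 to 0.28 in NT, from −0.47 to −0.06 in C3/C2 and from 0.04 to 0.50 in SN. The C3/C2 arrays lay below the NT arrays (log2 difference −0.41 ± 0.12 SE, adjusted p = 0.00564), and the other differences from NT were 0.12 for SN, 0.08 for TRAIL, and 0.08 and 0.26 for the co-treatments with C3/C2 and with SN (−0.63 and −0.27 with spike-in scaling). Replicates 1 and 2 were higher than replicates 3 and 4 in 5 of the 6 groups, all but TRAIL+C3/C2. CCND2 (chr12:4414040-4414099, plus strand, hg19) had no array well above background and intensities of 3.33 to 16.8, so no fold is given.

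Whether SN and C3/C2, which the study matched in acids, left these genes at different levels was tested directly, but across slides. Slide and treatment cannot be told apart in this comparison. CDKN1A was 3.02-fold higher in SN than in C3/C2 (log2 difference 1.60 ± 0.12 SE, adjusted p = 2.83e-09) and CDKN2B 2.28-fold (1.19 ± 0.13, adjusted p = 2.76e-07; 0.93 with normexp, no longer called). These 2 of 11 probes were the ones called, where 5.49% of all probes were. CDKN2D and CCND3 differed by −0.03 (95% interval −0.19 to 0.12) and 0.09 (−0.08 to 0.26). Under the fold threshold, CDKN1C (−0.49, adjusted p = 0.0249) and CDKN2C (−0.51, adjusted p = 0.00102) stood lower in SN. CCND1 (0.53, adjusted p = 0.00121), both CDKN1B probes (0.46 and 0.26) and both CDKN2A probes (0.23 and 0.43) stood higher. These too passed the adjusted p but not the fold.

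With TRAIL present, the same pair lay on 1 slide. TRAIL+SN against TRAIL+C3/C2 called 1 of 11 probes (3.48% of all probes), CDKN1C, which was 2.42-fold lower in TRAIL+SN (log2 difference −1.28 ± 0.17 SE, adjusted p = 7.09e-06). Without reaching the fold, CDKN1A was higher by 0.68 (adjusted p = 0.000141), the second CDKN1B probe by 0.39 (adjusted p = 0.000106) and CDKN2B by 0.40 (adjusted p = 0.0196). CDKN2C was lower in TRAIL+SN (−0.57, adjusted p = 0.000523), also under the fold. SN against TRAIL, also on 1 slide, called 5 of 11 probes, all higher in SN, where 21.0% of all probes were called. These were CDKN1A (2.97 ± 0.12 SE), CDKN1C (2.21), CDKN2B (1.89), CDKN2D (1.75) and CCND3 (1.13). The CCND3 difference was 0.90 when scaled to the array median. On each of these slides, as on slides 1 and 2, the groups filled separate rows, so row and group cannot be told apart.

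**Figure D3:**
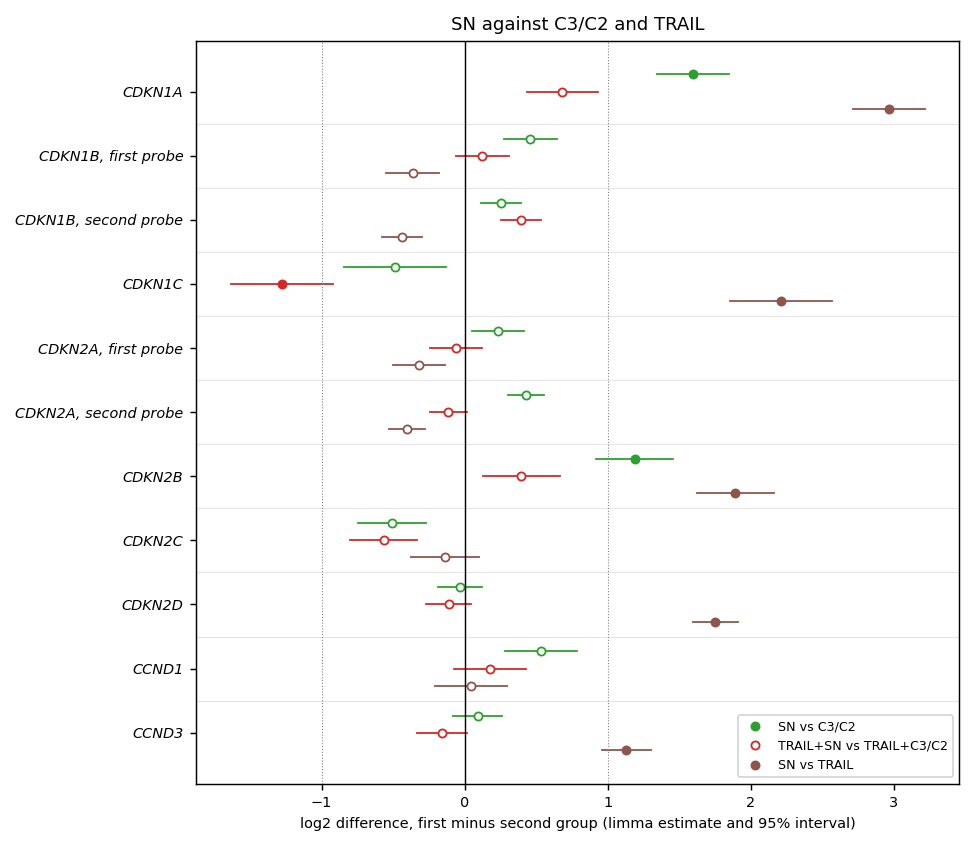
Log2 difference (horizontal axis, first minus second group) of the 11 tested probes for SN against C3/C2, which lay on different slides, and for TRAIL+SN against TRAIL+C3/C2 and SN against TRAIL, each within 1 slide, as the limma estimate with its 95% interval. Filled points were called and dotted lines mark 2-fold. CDKN1A and CDKN2B lie above 0 in all 3 comparisons, whereas the intervals of CDKN1C and CDKN2C lie below 0 in both comparisons of SN with C3/C2.

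Adding TRAIL was also compared across slides. TRAIL+C3/C2 (slide 4) against C3/C2 (slides 1 and 2) called CDKN1A (log2 difference 1.28 ± 0.12 SE, adjusted p = 7.93e-08) and CDKN2B (1.73 ± 0.13, adjusted p = 3.04e-09) higher, 2 of 11 probes where 3.63% of all probes were called. For CDKN1A the value fell to 0.74 with spike-in scaling, under the fold threshold. CDKN1C gave 0.86 (adjusted p = 0.00056). TRAIL+SN (slide 4) against SN (slide 3) called 0 of 11 probes with limma (5 at an unadjusted p under 0.05), where 1.07% of all probes were called, with CDKN2B at 0.93 (adjusted p = 4.01e-05) and CDKN1A at 0.37 (adjusted p = 0.0368). Spike-in scaling, which shifts all probes by −0.53 and −0.59 in these 2 comparisons, gave 0.33 for CDKN1C and 1.19 for CDKN2B in the first, and 0.34 for CDKN2B and −0.23 for CDKN1A in the second. Slide and added TRAIL cannot be told apart in either.

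The interaction asks whether a co-treatment departs, in log2, from what both single treatments add up to. Since both co-treatments lay on slide 4 and TRAIL on slide 3, it holds the difference between these slides. For SN, which also lay on slide 3, it further holds the difference of that slide from the NT slides. Slide and interaction cannot be told apart in either. For TRAIL with C3/C2, CDKN2B lay above the sum by 1.05 ± 0.18 (SE, adjusted p = 0.00224), the 1 probe of 11 called, where 0.608% of all probes were. That call is lost with the array median (0.90), spike-in (0.79) and normexp (0.86) settings and without TRAIL replicate 1 (0.89) or TRAIL+C3/C2 replicate 3 (0.99). CDKN1A under the same pair was −0.03 from the sum (95% interval −0.38 to 0.32). For TRAIL with SN, 0 of 11 probes were called with limma (5 at an unadjusted p under 0.05), where 2.98% of all probes were. CDKN1A stood 0.94 below that sum (−0.94 ± 0.17 SE, adjusted p = 0.000575) and is called with the array median (−1.11) and spike-in (−1.26) settings and without NT replicate 3 (−1.04) or TRAIL+SN replicate 1 (−1.01) or 2 (−1.02). CDKN2B gave 0.26 there (95% interval −0.12 to 0.64).

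**Figure D4:**
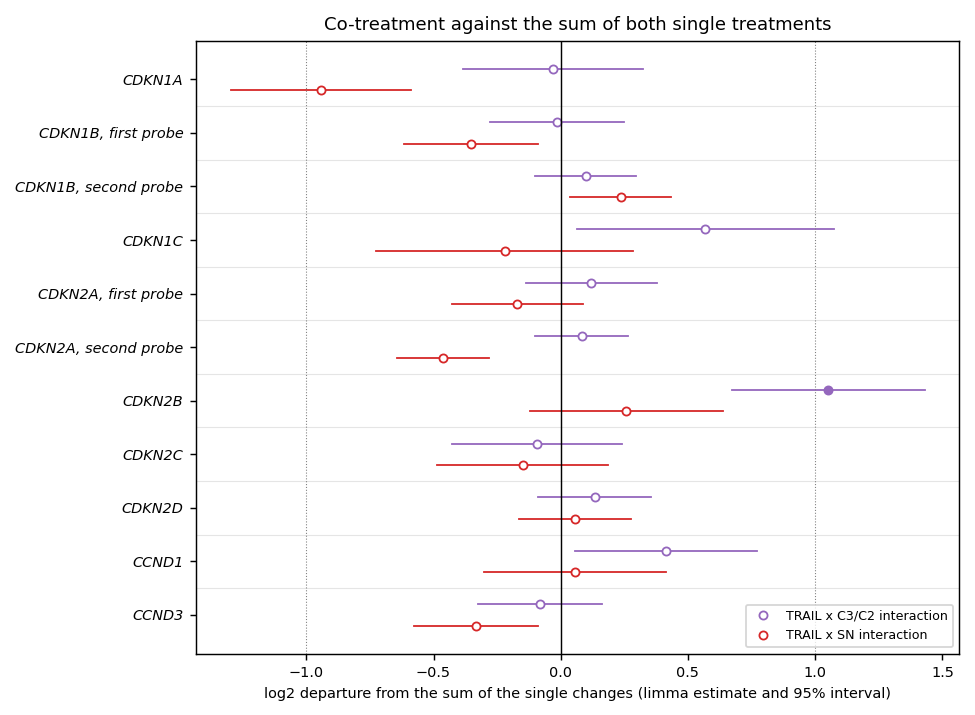
Log2 departure of each co-treatment from the sum of the changes of both single treatments (horizontal axis) for the 11 tested probes, as the limma estimate with its 95% interval, filled where called. CDKN2B with TRAIL+C3/C2 is the only filled point, at 1.05, and CDKN1A with TRAIL+SN lies at −0.94.

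The wider G1 machinery was described through a list of 31 kinases, cyclins, retinoblastoma and E2F proteins, and ubiquitin ligase parts, each gene at its brightest probe. With C3/C2, 3 were called higher and 3 lower, where 13.4% and 6.17% of 20700 genes were. With SN it was 2 and 3 (14.2% and 9.74% of genes), with TRAIL+C3/C2 4 and 3 (16.3% and 7.93%) and with TRAIL+SN 3 and 3 (16.1% and 10.1%). With TRAIL, limma called 0 (12 at an unadjusted p under 0.05), where 0.744% and 2.18% of genes were called. The median of the list was −0.16, −0.14, 0.00, −0.19 and −0.16 (single treatments C3/C2, SN and TRAIL, then the co-treatments), against 0.08, −0.02, 0.03, 0.10 and 0.04 over all genes. CUL1, the scaffold of SCF ubiquitin ligases, was lower by the most, at −1.81 with C3/C2, −1.70 with SN and −2.02 and −1.93 with their co-treatments. In the same order CCNE1, the cyclin E partner of CDK2, was higher by 1.16, 1.25, 1.32 and 1.31, and CCNA2, the cyclin A of S phase, had −1.17, −1.46, −1.10 and −1.41. FBXO31, an F-box protein known to mark cyclin D1 for degradation, was higher by 1.53 and 1.08 with C3/C2 and SN. RBL1, the retinoblastoma relative p107, was lower with C3/C2 (−1.25) and TRAIL+C3/C2 (−1.35), and E2F2 was higher in both (1.23 and 1.10), as was the kinase CDK2 in the second (1.08). E2F3 was lower with SN (−1.14). With TRAIL+SN, TFDP1, the partner of E2F proteins, was lower (−1.13), and the ubiquitin ligase part FBXW7 (1.03) and the replication licensing factor CDC6 (1.02) were higher. The split depends on the scaling: with the spike-in probes, 0 genes were higher and 15 lower with TRAIL+C3/C2 and 0 and 13 with TRAIL+SN, and with the array median 0 and 7, and 1 and 6. With C3/C2 alone, the array median gave 1 higher and 6 lower, and CCNE1 and E2F2 lost their calls there. With SN alone, 1 was higher with the array median and 4 with the spike-in probes.

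Of 24 genes known as regulators of CDKN1A or CCND1 transcription, 23 were tested, and TP63 was not well above background in any whole group. C3/C2 called 2 higher and 2 lower, SN 4 and 2, TRAIL 1 and 0, TRAIL+C3/C2 4 and 2 and TRAIL+SN 8 and 1, beside 16.1% and 10.1% of all genes in the last and the shares given for the G1 list in the others. With spike-in scaling 2 were higher and 7 lower in the co-treatment with C3/C2, and 3 higher and 5 lower in that with SN, and with the array median 5 were higher with TRAIL+SN. KLF4, a transcription factor known to activate CDKN1A in the gut epithelium, was higher by 1.86 with C3/C2 and 2.35 with SN, and by 2.87 and 2.39 with their co-treatments. FOS, a part of AP-1, was higher by 1.10, 2.55, 2.34 and 2.88 in the same order. Its call with C3/C2 is lost with array median and with spike-in scaling, where 1 regulator was higher with C3/C2. The early response factor EGR1 was higher with SN (1.69), TRAIL+C3/C2 (1.43) and TRAIL+SN (2.81), JUN, another part of AP-1, with SN (1.43) and TRAIL+SN (1.503), and FOXO1 with both co-treatments (1.21 and 1.25). The proto-oncogene MYC was lower in all 4, at −1.89, −1.83, −1.21 and −1.53. SMAD3, which carries TGF-beta signals, was the one gene called with TRAIL (1.09). Its call with TRAIL is lost with quantile normalization and spike-in scaling.

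Of 8 proliferation genes, limma called 0 higher in any comparison, and 2 lower with C3/C2, 3 with SN and 3 with TRAIL+SN, where 6.17%, 9.74% and 10.1% of all genes were lower. In these 3 comparisons AURKA, a mitotic kinase, had log2 differences of −1.15, −1.93 and −1.85 and PLK1, another, of −1.25, −1.39 and −1.24, and CCNB1, the mitotic cyclin B, had −1.09 with SN and with TRAIL+SN. With TRAIL and TRAIL+C3/C2 none was called (3 and 5 at an unadjusted p under 0.05). For TRAIL+C3/C2 this depended on the processing. There, 4 were lower with spike-in scaling, 2 with the array median, 1 with quantile normalization and 1 with normexp.

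**Figure D5:**
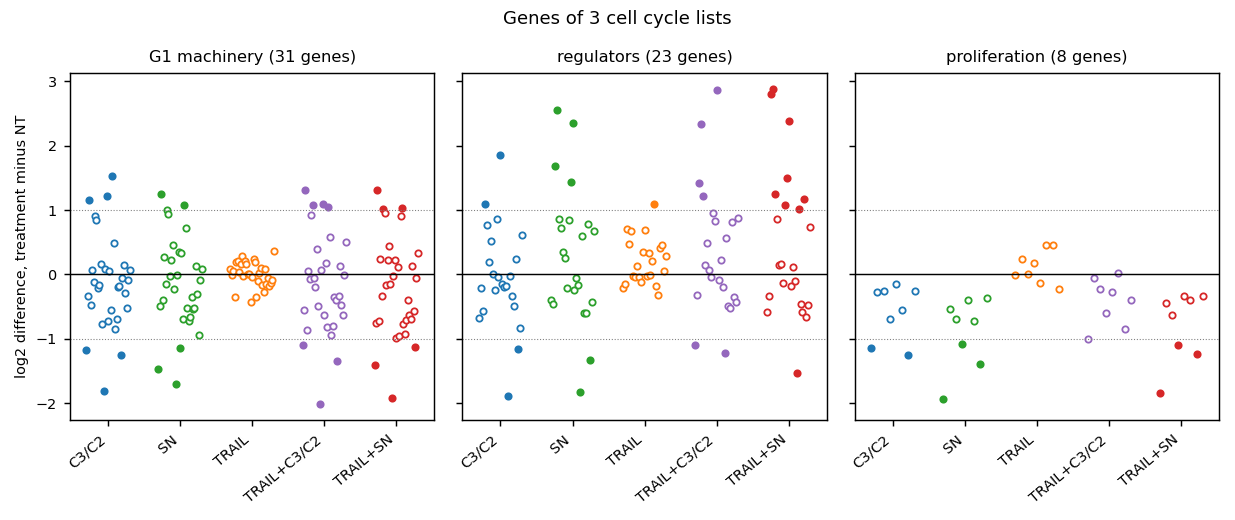
Log2 difference from NT (vertical axis) of each tested gene of the G1 machinery (31), regulator (23) and proliferation (8) lists for the 5 treatments, at the brightest probe of each gene. Filled points were called, dotted lines mark 2-fold, and TRAIL has 1 filled point, SMAD3.

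The named genes whose levels over the 24 arrays ran most like that of CDKN1A were ABTB2 (r = 0.992), ZNF598 (0.991), NPAS2 (0.990), RHOB (0.989) and PI4KA (0.987). For CCND1 they were KRT15 (0.895), MT1X (0.858), PITPNM3 (0.850), SEMA3B (0.845) and TAZ (0.844). These are descriptions over arrays that share groups, slides and scaling. RHOB, a small GTPase, differed from NT by 1.57 with C3/C2, 2.41 with SN and 0.56 with TRAIL, and ABTB2 by 1.73, 2.44 and 0.80.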

How the data were processed

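RNA of 24 HT29 samples was labelled with one dye and hybridised singly to Agilent whole genome arrays. The authors extracted spots with Agilent Feature Extraction 10.7.3.1 (version per the file headers), and the deposited intensity of each spot is background-subtracted and not normalized between arrays. Their own table holds the same intensity divided by the array median, and its 24 flag columns were not used. The deposited mean signal and local background intensity served one alternative.

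Here, the 58717 spots per array that are not controls were used without those marked as outliers, spots of a probe were averaged as log2 intensity, and the 75th percentile of the array was subtracted. No spot was saturated. A probe was tested if some group had it well above background on each of its 4 arrays, 27953 in all. Group means of 6 groups were fitted in limma 3.58.1 (R 4.3.3, data.table version 1.17.8, statmod 1.5.0) with 18 residual degrees of freedom over 12 contrasts, and the script was tested on simulated data. The median SE of a log2 difference from NT was 0.11, and precision is limited by the number of arrays and of independent experiments. The study describes independent experiments in duplicate, so the 4 arrays of a group are not 4 independent experiments. It does not say which replicate numbers belong together. The p-values therefore measure the spread between these arrays, which may be partly technical.

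All 10 genes are reported at every probe. List genes stand at their brightest tested probe, with values for at most 6 per list and comparison, those with the largest change among the called (1 gene of the regulator list is not reported here by name), and 5 genes are named as most like CDKN1A and CCND1 by Pearson's r. Members, lists and rules were chosen with earlier results of these data known. Alternatives changed the scaling (array median, 7 spike-in probes, quantile), the background (normexp, offset 50), the filter, outlier spots, the fold threshold, the probe per gene, the arrays fitted, the variance prior, and slide and replicate blocks. Coordinates are hg19 as listed in the files, and exon annotation on hg19 was not used here. Figures used matplotlib 3.10.9 (Python 3.11.15).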

Additional observations from a re-analysis of the deposited data

Results flagged for a closer look

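The level of CCND2 in TRAIL+SN replicate 4 was −5.03, against −7.30 to −7.06 on the other 3 arrays of the group. A test for 1 value far from the others in groups of 4 singled out this array alone among the 72 groups of values examined. Chance flags about 1 in 20 of such groups, so 1 flag among 72 is not more than chance gives. The probe was not well above background on that array or any other.

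For TRAIL with C3/C2, CDKN2B departed from the sum of the single treatments by 1.05 on the log2 scale, by a test of the interaction itself. TRAIL+C3/C2 lay on slide 4 and TRAIL on slide 3, so slide and interaction cannot be told apart.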

How the results depend on the processing

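No called difference of a member changed sign under any alternative. The number of member probes called was within 1.5 times the value reported under most settings, with these exceptions. With array median scaling it was 0 for the interaction of TRAIL with C3/C2 and 1 for that with SN. Spike-in scaling gave 1 for TRAIL+C3/C2 against C3/C2, 0 for the C3/C2 interaction and 1 for the SN interaction. With normexp it was 0 for TRAIL against NT, 1 for SN against C3/C2 and 0 for the C3/C2 interaction. Without a minimum fold it was 10 for C3/C2, 5 for TRAIL and 9 for TRAIL+SN against NT, 9 for SN against C3/C2, 5 for TRAIL+SN against TRAIL+C3/C2, 9 for SN against TRAIL, 8 for TRAIL+C3/C2 against C3/C2, 4 for TRAIL+SN against SN and 3 for the SN interaction.

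Leaving out 1 array at a time gave 5 to 6 probes for C3/C2 against NT, 4 to 5 for TRAIL+SN against NT and 0 to 1 for both interactions, and left the other counts as reported, at 5 (SN), 1 (TRAIL) and 6 (TRAIL+C3/C2) against NT, 2 for SN against C3/C2, 1 for TRAIL+SN against TRAIL+C3/C2, 5 for SN against TRAIL, 2 for TRAIL+C3/C2 against C3/C2 and 0 for TRAIL+SN against SN. Arrays with the same replicate number deviated together with r from 0.05 to 0.45 over 60 pairs, and 20 of 24 arrays correlated best with their own number. The number equals the column on the slide for all arrays but replicate 1 of NT and of C3/C2. These 2 alone lay on slide 1 and gave the r of 0.45. Replicate number and array position therefore cannot be told apart, and this is a hint from the data and not the design. A replicate block changed no count of member probes called (6, 5, 1, 6 and 4 against NT). Each group holds each number once, so the block leaves the log2 differences as they are and acts on the p-values alone. Every member past 2-fold already had an adjusted p well under 0.05, so these counts could hardly change. With slide as a random block (correlation 0.018) the counts were as reported, which says nothing of slide in the comparisons of groups that lay wholly on different slides.

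Over all probes, spike-in scaling changed the number called from 1015 to 2479 for TRAIL+C3/C2 against C3/C2 and from 299 to 1208 for TRAIL+SN against SN, while normexp gave 2762, 3630, 293, 4146 and 4345 in place of 5464, 6659, 792, 6851 and 7331 for the 5 differences from NT. CDKN1A and CDKN2B were dim in NT, and their lowest differences from NT with C3/C2, SN and the co-treatments came with normexp. The cause of these changes was not tested.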

Other observations

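CDKN2B-AS, the long RNA transcribed opposite CDKN2B, has 3 probes on the array, of which 2 were well above background on all arrays. Their group means ran from −4.33 (SN) to −3.60 (TRAIL+C3/C2) for one and from −2.94 (TRAIL) to −2.53 (C3/C2) for the other, within a range of under 1 on the log2 scale, while the CDKN2B group means ran from −3.81 (NT) to −0.30 (TRAIL+SN). None of these CDKN2B-AS probes overlaps the CDKN2B probe.

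CDKN1C in NT stood at 0.91 and 1.01 in replicates 1 and 2 and at 1.68 and 1.77 in replicates 3 and 4, and CDKN2C at 0.83 and 0.85 against 0.64 and 0.63. Over all probes tested, deviations from the group means correlated with a median r of 0.16 among arrays of different groups numbered 1 or 2, or numbered 3 or 4, and of −0.16 between these. Such deviations cancel out within each group, so the negative value follows largely from the positive one. The labels do not say what the numbers stand for, and the numbers largely run with the column on the slide.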
